A study of Mus musculus with 6 samples.

Results

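The 30 genes described here are known to respond to oestrogen in other tissues and were followed in pancreatic islets of mice given bisphenol A (BPA), an industrial compound with oestrogenic activity. The 30 genes were listed by name, and every probe set of the array annotated with 1 of those names was taken, dim ones included. That gave 61 of the 45101 probe sets in the table, for 28 of the 30 genes. Areg and C3 had no probe set under their name in the annotation used and were not analysed here. Of the 61 probe sets, 3 are array controls for Tfrc and are given as values without a test, which left 58 of 45037 probe sets for the comparison.

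The treated samples were islets from 10-week-old OF1 male mice that had received BPA, and the control samples were islets from OF1 males of the same age that had received its corn oil vehicle (3 samples per group, 1 array each). The labels give the treatment in 3 ways: 100 µg/kg/day for 4 days, injected under the skin as doses of 50 µg/kg, with islets taken 16 hours after the last dose; 2 days at 100 µg/kg/day; and 1 nM for 48 hours. Which of these applied is not settled by the labels. The series' title places the treatment in the living animal. The labels call the samples biological replicates, with 3 experiments behind each, without saying how many mice each held. The p-values set each group difference against the spread between these samples, which need not be the spread between single mice. All groups share OF1 background, male sex and age, and no genotype or allele is given. Array medians ran from 6.55 to 6.65 (log2), and 3 arrays per group limit the precision of every value. A measure of RNA quality, given with Tiparp below, moved with the groups for the beta-actin and Gapdh array controls. All 8 endocrine markers checked were above background, and the hormone genes Ins2, Gcg, Sst and Ppy read 13.66 or more on every array. Control replicate 3 and BPA replicate 1 each stood apart in a set of genes described with the trefoil factors and Igf1 below, where the values of Tff2, Tff3 and Igf1 are given with and without these arrays.

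Oestrogen acts through the nuclear receptors Esr1 and Esr2, which bind DNA at oestrogen response elements or through partner factors such as AP-1 and Sp1, and through the membrane receptor Gper1, which signals by kinases. In breast and uterus the nuclear route switches on a well-known set of genes, among them Greb1, Pgr, the trefoil factor Tff1, Ccnd1 and Myc, while Nrip1 and other coregulators that are induced feed back on the receptor. In islets, oestrogen receptors are known for effects on insulin content, beta cell survival and rapid ion channel responses.

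Which of these genes gave a signal above background was read against sensory receptor genes, chosen as hardly expressed outside sensory tissue. Log2 signals of 81 probe sets of olfactory, vomeronasal and trace amine receptors had a median of 4.48, and their 95th percentile of 6.81 was taken as the background level. Of these 81, 4 lay above that level, the highest at 8.14, and whether islets use any of these receptors was not tested. A signal on a 3′ expression array depends on each probe set's own affinity, so the levels do not rank genes against each other. By this level 36 of the 58 probe sets (62.1%) were above background, where 46.9% of all probe sets were, and 21 of the 28 genes had at least 1 such probe set. The 7 genes with none were Greb1, Pgr, Rara, Gata3, Mybl1, Pdzk1 and Ltf. Of the 21 genes, 20 exceeded the level on each of the 6 arrays on their brightest probe set; the exception was Tff3, which passed through control replicate 3 alone. Closest above the level were Tff3 (6.98), Myc (7.02) and Ptges (7.10), and closest below it was Rara (6.43). With the 75th percentile of all probe sets (8.59) as a stricter level 15 genes were above it, and Celsr2, Fhl2, Igf1, Myc, Ptges and Tff3 were the 6 that dropped out.

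Several of the genes most used as readouts of the nuclear receptor were thus among the dim ones. The receptor's early target Greb1, a coactivator of Esr1 in breast cells, had 4 probe sets between 4.39 and 5.88 on any array. The progesterone receptor gene Pgr had 3 between 3.84 and 5.45, and Gata3, a factor that works with Esr1 in breast epithelium, read 3.72 to 4.02. Mybl1, a relative of the Myb proto-oncogene, had 2 between 3.21 and 4.63. Rara, a retinoic acid receptor, read 6.28 to 6.59, and Pdzk1, a scaffold of membrane transporters, 5.60 to 6.01. The lactoferrin gene Ltf, which oestrogen induces strongly in mouse uterus, read 5.61, 5.51 and 5.63 after BPA and 5.47, 5.39 and 5.24 in controls. These BPA arrays all lay above the controls, but by 0.22 ± 0.10 (SE, log2) at a level below background (limma, adjusted p = 0.852).

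**Figure D1:**
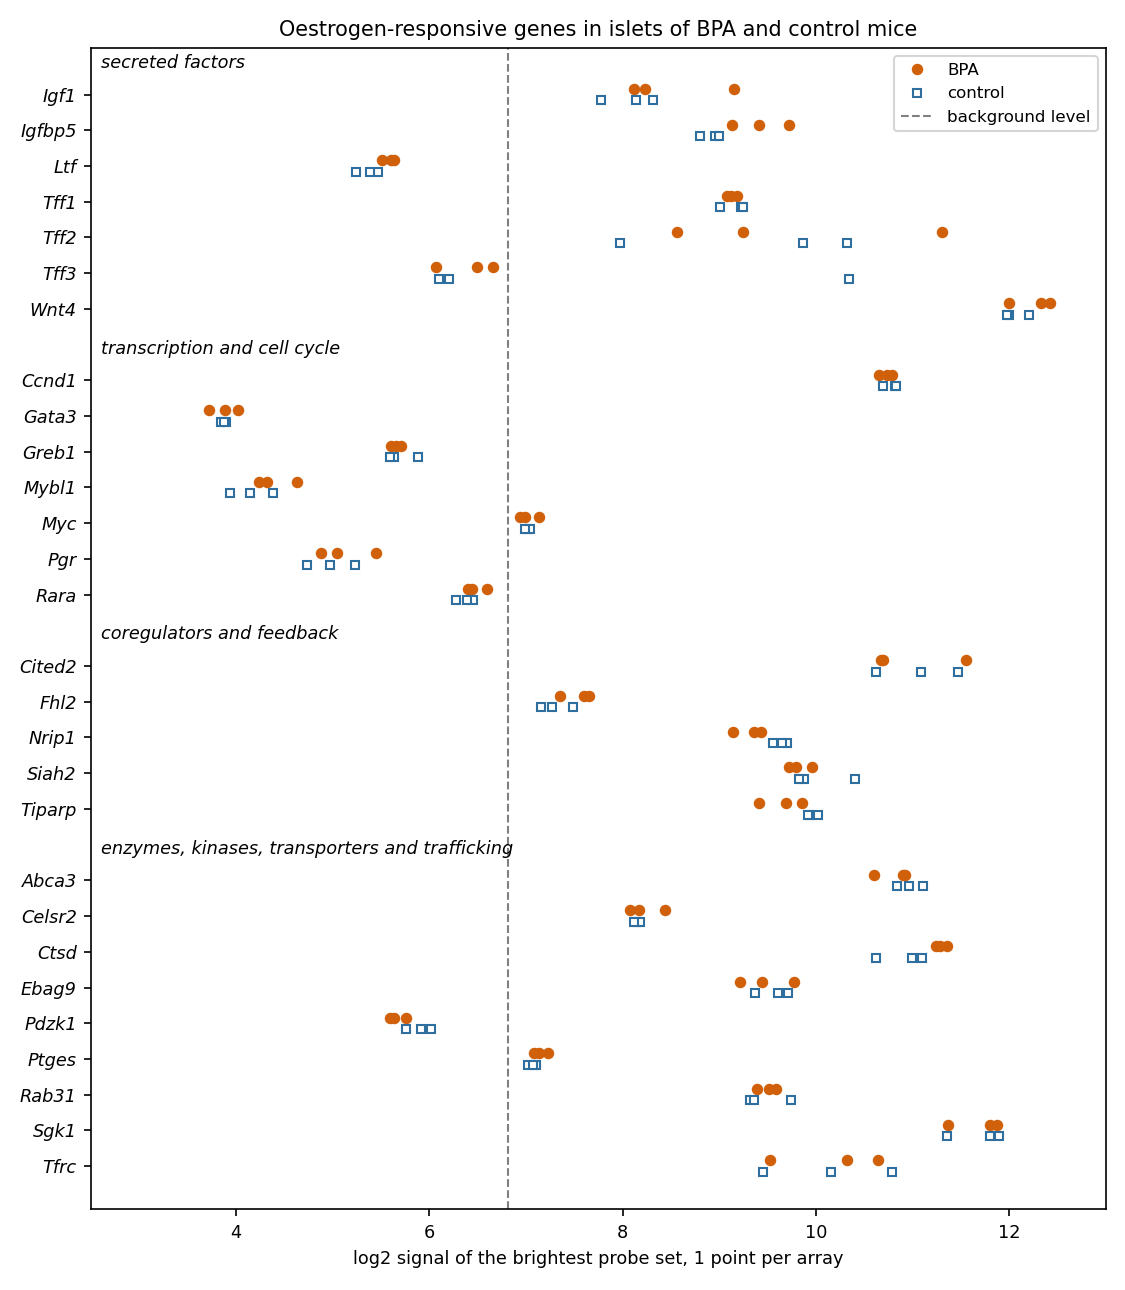
Log2 signal of the brightest probe set of each of the 28 measured genes (x axis), with 1 filled circle per BPA array and 1 open square per control array (3 each), grouped by role; the dashed line is the background level of 6.81. The 7 genes named above lie left of the line on all 6 arrays, and Tff3 lies right of it in control replicate 3 alone.

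The comparison of BPA with vehicle asked whether the oestrogen-responsive genes differ after treatment. In limma's moderated test over all 45037 probe sets, 0 of the 58 passed an adjusted p under 0.05 with higher signal (background 0%) and 0 with lower signal (background 0%). The smallest adjusted p among them was 0.808, which was also the smallest of the whole table. At an unadjusted p under 0.05 there were 5 of 58, against 5.87% of all probe sets. Of them 2 had higher signal after BPA (3.43% of all) and 3 lower signal (2.44% of all). All 5 were among the 36 above background, where 6.65% of such probe sets reached that p, 3.92% with higher and 2.72% with lower signal. Without control replicate 3 the count was 8 of 58, against 2549 of all 45037 probe sets in that fit. The 2 groups did not overlap for 11 of the 58 probe sets, from 8 genes, against 11.5% of all probe sets: 6 were higher (7.56% of all) and 5 lower (3.96% of all). Among the 36 above background 8 did not overlap (12.4% of all such probe sets), 3 of them higher (7.91%) and 5 lower (4.48%). Because 3 of the 11 belong to Tiparp and 2 to Nrip1, they are not 11 separate genes.

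Differences among the 58 probe sets centred near 0: 33 were higher and 25 lower in BPA arrays. Their median difference was 0.02 (log2), the same as over all 45037 probe sets, of which 54.9% were higher. Among the 36 probe sets above background 18 were higher and 18 lower. The 95% interval of the difference lay within -1 and 1 for 50 of the 58 probe sets and within -0.5 and 0.5 for 30, so for the remaining ones the interval reaches past 0.5 in at least 1 direction. Of the 58, 6 differed by more than 0.5 in size, where 4.38% of all probe sets did, and 5 of these were above background, where 6.54% did. The 6 were 2 probe sets of Tiparp, 1 of Igfbp5, 1 of Tff3 and 2 of Igf1.

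**Figure D2:**
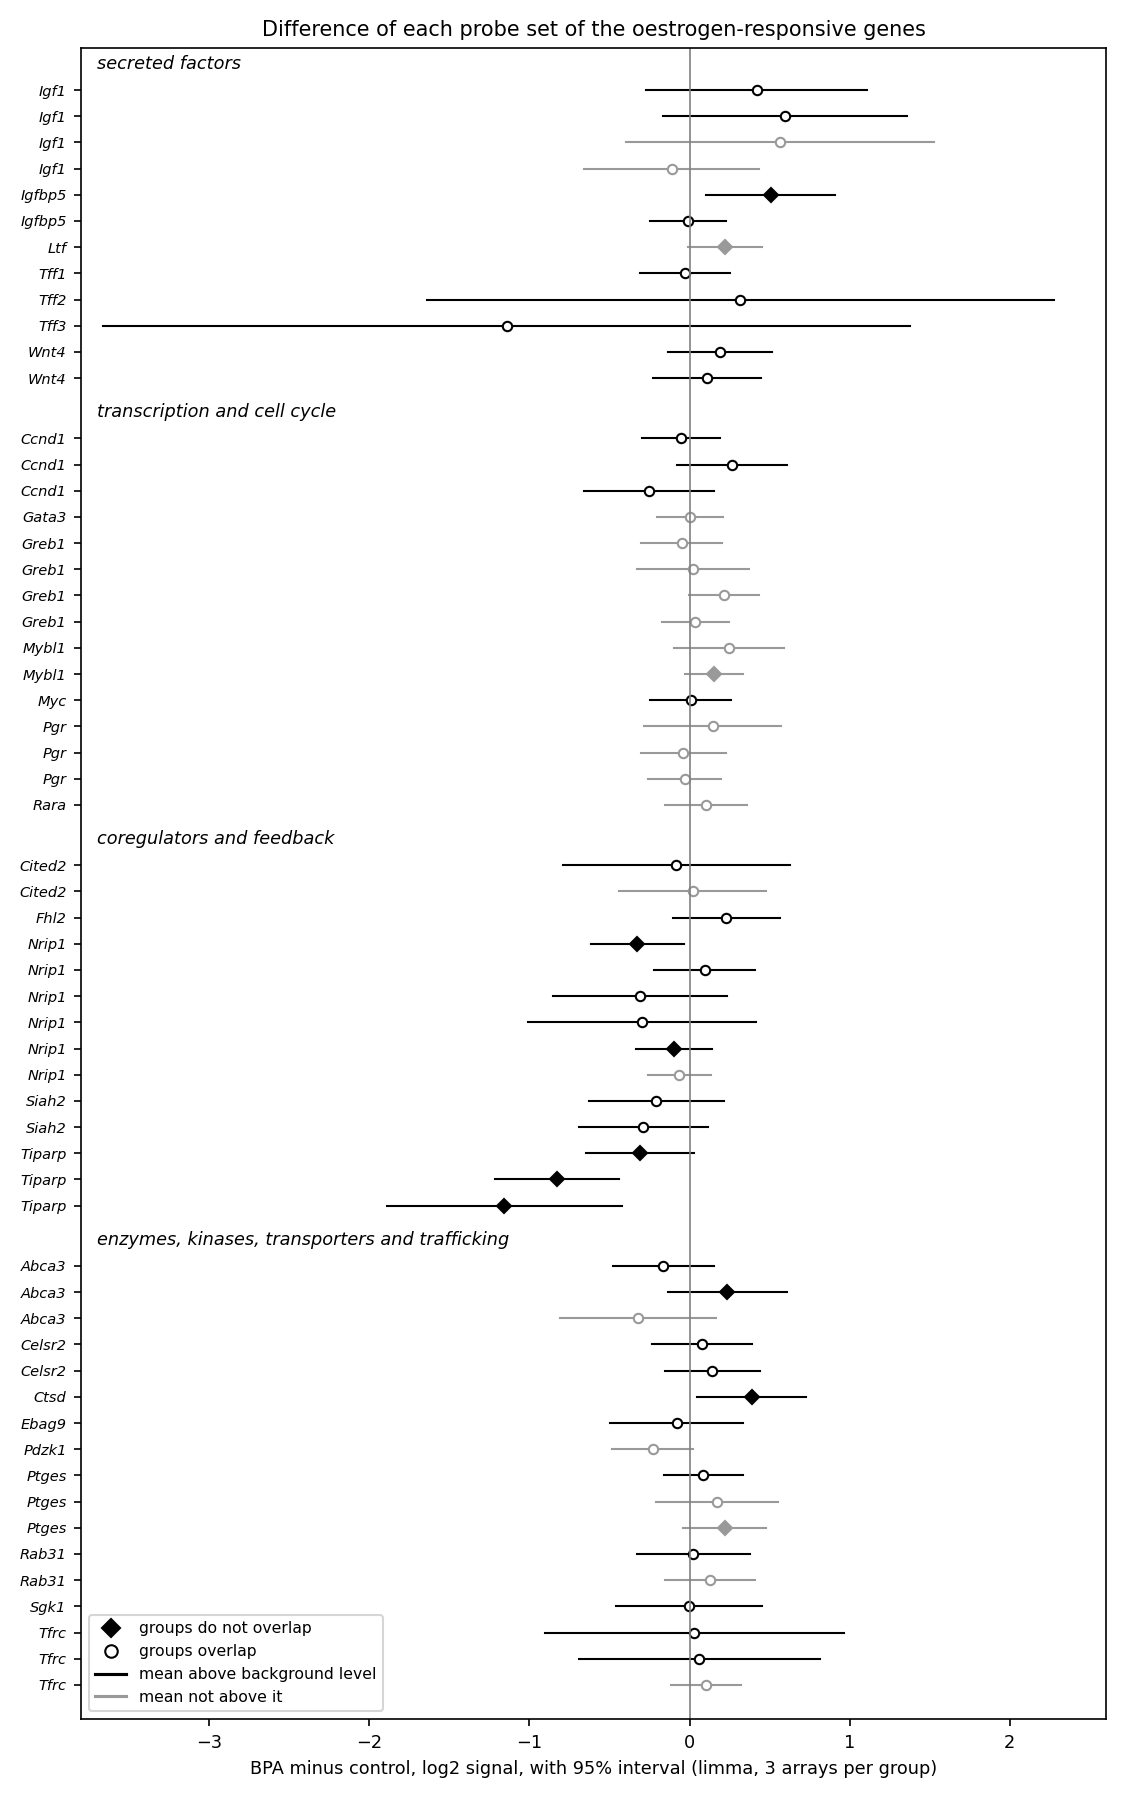
BPA minus control on the log2 scale (x axis) for each of the 58 probe sets, ordered by role and gene, with limma's 95% interval; filled diamonds mark probe sets whose groups do not overlap, and grey marks those whose mean is not above background. The 3 Tiparp probe sets lie left of 0, and the widest intervals belong to Tff3 and Tff2.

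Among coregulators and feedback genes, Tiparp had lower signal on all 3 of its probe sets. Tiparp encodes a mono-ADP-ribosyltransferase, is a well-known target of the aryl hydrocarbon receptor and represses that receptor in turn; oestrogen also induces it in breast cells. Probe set 1452161_at read 8.56, 8.26 and 7.38 in BPA replicates 1 to 3, against 9.40, 9.38 and 8.90 in control replicates 1 to 3. Every BPA array lay below every control, and BPA replicate 3 was lowest. Its mean was 8.07 ± 0.61 in BPA islets and 9.22 ± 0.28 in control islets (SD, n = 3 each). The difference of -1.16 ± 0.31 (SE) puts BPA at 0.449 times the control signal. Probe set 1452160_at read 9.28, 9.43 and 8.98 in BPA arrays, against 9.91, 10.27 and 10.00 in controls. The difference was -0.83 ± 0.16 (SE). Its unadjusted p of 0.00139 was the smallest of the 58, while 59 other probe sets of the table had a smaller one. The brightest probe set, 1426721_s_at, read 9.69, 9.86 and 9.41 after BPA, against 9.94, 10.02 and 9.92 in controls, and differed least, by -0.31 ± 0.14 (SE). None of the 3 passed the test (adjusted p = 0.808, 0.808 and 0.852).

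The 3 probe sets of Tiparp were lower in all 3 BPA arrays and agreed in sign, but they measure 1 gene in the same 6 RNAs and are not repeats of the experiment. Over 16 alternative settings the difference of 1452161_at ran from -1.40 to -0.81, that of 1452160_at from -0.93 to -0.70 and that of 1426721_s_at from -0.41 to -0.19, the last without BPA replicate 3. The adjusted p of the 3 ranged from 0.232 to 0.9996 over those settings. A measure of RNA quality moved with the groups: the 3′ minus 5′ signal of the array's beta-actin control was 2.61 to 2.98 in BPA arrays, against 3.35 to 3.80 in controls, and that of Gapdh 2.58 to 2.99 against 3.40 to 3.79. For the transferrin receptor control (2.22 to 2.42 in BPA arrays, 2.10 to 2.43 in controls) and the pyruvate carboxylase control (3.83 to 4.08 and 3.98 to 4.26) the groups overlapped. The part of RNA quality in the Tiparp values, and in every other difference between the groups given here, was not tested.

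Nrip1, which encodes RIP140, a corepressor that the oestrogen receptor both induces and recruits, had 6 probe sets that disagreed. The brightest, 1449089_at, read 9.43, 9.36 and 9.14 in BPA arrays, against 9.70, 9.65 and 9.56 in controls, with no overlap and a difference of -0.33 ± 0.12 (SE, adjusted p = 0.837). Probe set 1432603_at, at the edge of background, read 6.84, 6.75 and 6.88 in BPA arrays, against 6.90, 6.90 and 6.96 in controls, so the groups did not overlap here either, but they differed by -0.10 ± 0.10. The second brightest, 1434384_at, differed by 0.09 ± 0.13 with overlapping groups, and the other 3 by -0.31 to -0.06, also with overlap. Of these, 1418469_at differed by -0.30 with all arrays and by 0.06 without control replicate 1. Siah2, a ubiquitin ligase that oestrogen induces in breast cells, differed by -0.21 ± 0.18 and -0.29 ± 0.17 on its 2 probe sets, and by -0.02 and -0.14 without control replicate 2. Fhl2, a coactivator with LIM domains, differed by 0.23 ± 0.14. Cited2, a protein that binds CBP and p300, varied more within groups than between them (10.69, 11.56 and 10.68 in BPA arrays, 11.08, 10.62 and 11.47 in controls) and differed by -0.08 ± 0.30. All of these groups overlapped.

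Among enzymes, kinases, transporters and trafficking genes, only Ctsd had an unadjusted p under 0.05 (limma). Ctsd encodes cathepsin D, a lysosomal protease and a classical oestrogen-induced protein of breast cancer cells. It read 11.36, 11.24 and 11.28 in BPA arrays, against 10.62, 11.10 and 11.00 in controls. The groups did not overlap, though control replicates 2 and 3 came close to the BPA arrays and control replicate 1 lay lowest. The mean was 11.29 ± 0.06 in BPA islets and 10.90 ± 0.25 in control islets (SD, n = 3 each). The difference was 0.39 ± 0.14 (SE, adjusted p = 0.837), or 1.31 times the control signal, and 0.25 without control replicate 1. Cathepsin D is abundant in macrophages. The macrophage gene Cd68 read 7.75, 6.58 and 6.74 in BPA arrays, against 6.14, 5.96 and 5.75 in controls, and the mean of the 8 immune markers, centred on the 6 arrays, was 0.59, -0.07 and 0.01 in BPA arrays against 0.00, -0.19 and -0.35 in controls (exact permutation p = 0.2, two-sided; 3 against 3 cannot go below 0.1). Of the 8 markers 6 were higher and 2 lower, C1qa was the other one without overlap, and the mean of Cd68 itself was below background. The part of immune cells in the Ctsd values was not tested.

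The other genes of this role differed less. Abca3, a lipid transporter, had no overlap on 1425496_at, with 7.68, 8.10 and 7.67 in BPA arrays, against 7.44, 7.64 and 7.67 in controls, but the margin between BPA replicate 3 and control replicate 3 was under 0.01. That probe set differed by 0.24 ± 0.16 (SE). The brightest of Abca3, 1451731_at, leaned the other way, by -0.16 ± 0.13 with overlap, and so did the dim 1451869_at, by -0.32 ± 0.21 with overlap. Ptges, an inducible prostaglandin E synthase, differed by 0.09 ± 0.10, 0.17 ± 0.16 and 0.22 ± 0.11 on its 3 probe sets; the last did not overlap and was below background, at 6.48, 6.29 and 6.56 in BPA arrays against 6.23, 6.18 and 6.27 in controls. Sgk1, a kinase induced by steroids, differed by 0.00 ± 0.19 at 11.68 ± 0.27 in BPA islets and 11.68 ± 0.29 in control islets (SD, n = 3 each). Ebag9 (-0.08 ± 0.18), the small GTPase gene Rab31 (0.02 ± 0.15) and the cadherin-like Celsr2 (0.08 ± 0.13) overlapped on their brightest probe sets, and dim Pdzk1 differed by -0.23 ± 0.11.

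Tfrc, the transferrin receptor, varied with the replicate number in both groups. Its brightest probe set read 10.32, 10.65 and 9.52 in BPA arrays, against 10.16, 10.79 and 9.46 in controls. In both groups replicate 3 was lowest and replicate 2 highest, and the difference between groups was 0.03 ± 0.40 (SE). Its second probe set had the same order, with 7.85, 7.93 and 7.04 after BPA against 7.52, 8.05 and 7.07 in controls. The 3 array control probe sets of this gene read 3.43 to 6.08 in BPA arrays and 3.45 to 6.06 in controls, all below background.

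Among secreted factors, Igfbp5 had 2 probe sets that disagreed. Igfbp5 encodes a binding protein of insulin-like growth factors. Probe set 1452114_s_at read 9.13, 9.41 and 9.72 in BPA arrays, against 8.95, 8.80 and 8.99 in controls. It did not overlap, and BPA was at 1.42 times the control signal, with 0.51 ± 0.17 between the means (SE, adjusted p = 0.836). Probe set 1422313_a_at, also above background, read 7.53, 7.54 and 7.58 after BPA, against 7.55, 7.56 and 7.56 in controls, a difference of -0.01 ± 0.10, with an interval of -0.25 to 0.23 that lies below the estimate of the other probe set. Wnt4, a signalling protein that progesterone and oestrogen regulate in mammary gland and uterus, was high in all arrays, at 12.25 ± 0.22 in BPA islets and 12.06 ± 0.13 in control islets (SD, n = 3 each). It differed by 0.19 ± 0.14 and 0.11 ± 0.14 (SE) on its 2 probe sets, with overlap.

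**Figure D3:**
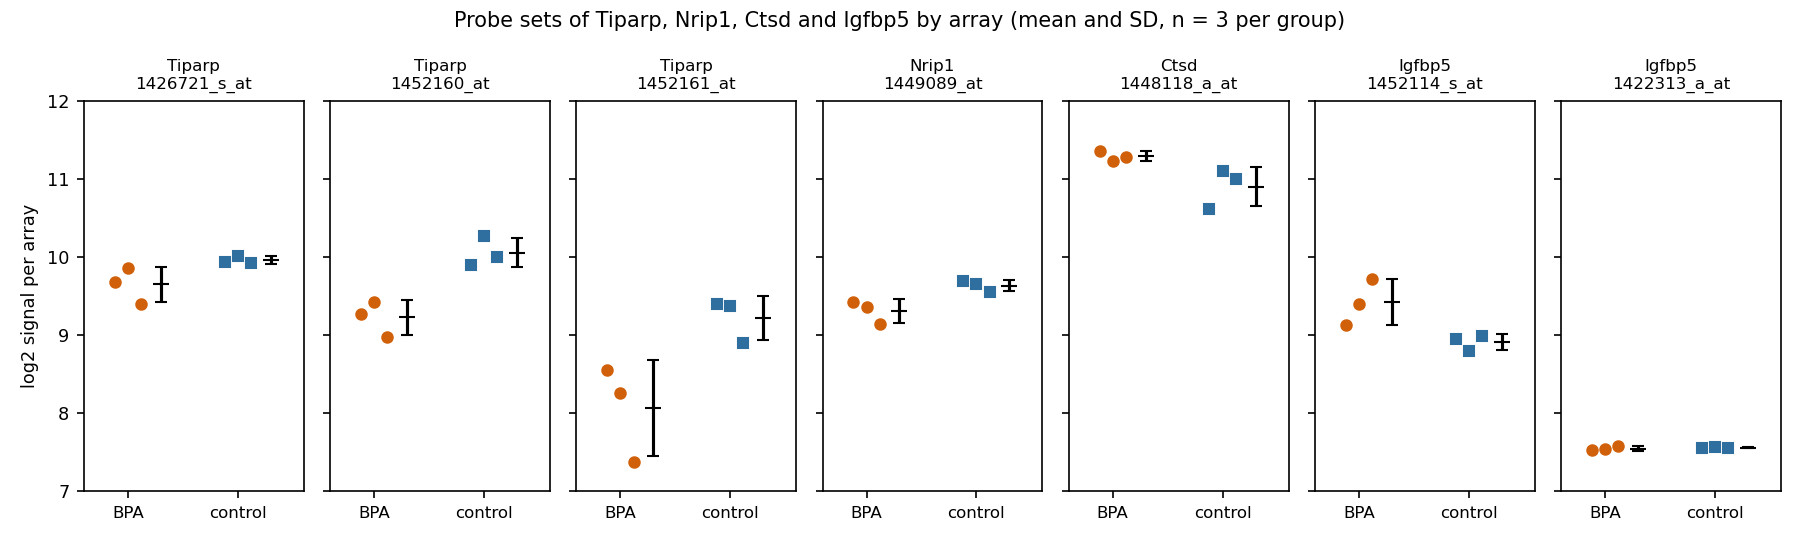
Log2 signal per array (y axis) for the 3 probe sets of Tiparp, the brightest of Nrip1, that of Ctsd and the 2 of Igfbp5, with BPA arrays as circles left of control arrays as squares; bars give mean and SD (n = 3 per group). The groups are apart on each panel except that of 1422313_a_at, where Igfbp5 reads 7.53 to 7.58 in BPA arrays and 7.55 to 7.56 in control arrays.

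The 250 bases before the RefSeq transcription start are shown for the 4 genes with an unadjusted p under 0.05, as the stretch in which a receptor's element could lie closest to the start (GRCm38.p6, 5′ to 3′ on the gene's strand). Promoters were in the RefSeq table for 22 of the 30 genes (35 start sites). Those of Tff1, Tff2, Tff3, Myc, Ccnd1, Siah2, Ebag9 and Mybl1 were not, so these genes were not searched. Capitals mark the oestrogen response half-site GGTCA and the xenobiotic response element core GCGTG, each on either strand (TGACC and CACGC on the other). The full element GGTCANNNTGACC, which holds a half-site on each strand, was also searched.
Tiparp, chr3:65528197-65528446, plus strand: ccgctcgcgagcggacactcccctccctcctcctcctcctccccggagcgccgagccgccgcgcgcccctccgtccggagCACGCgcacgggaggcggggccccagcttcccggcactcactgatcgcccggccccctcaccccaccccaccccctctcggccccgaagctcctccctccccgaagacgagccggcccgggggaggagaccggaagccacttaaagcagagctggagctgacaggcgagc
Ctsd, chr7:142387828-142388077, minus strand: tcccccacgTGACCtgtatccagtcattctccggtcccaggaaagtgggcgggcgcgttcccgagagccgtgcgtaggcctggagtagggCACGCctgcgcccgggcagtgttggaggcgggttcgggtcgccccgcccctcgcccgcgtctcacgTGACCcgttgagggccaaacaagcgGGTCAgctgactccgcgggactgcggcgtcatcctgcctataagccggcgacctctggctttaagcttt
Igfbp5, chr1:72874866-72875115, minus strand: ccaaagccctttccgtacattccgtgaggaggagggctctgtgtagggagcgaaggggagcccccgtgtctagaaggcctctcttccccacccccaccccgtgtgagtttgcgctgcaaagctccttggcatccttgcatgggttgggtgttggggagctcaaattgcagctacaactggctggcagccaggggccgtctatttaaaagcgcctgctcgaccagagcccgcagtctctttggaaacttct
Nrip1, first start, chr16:76373828-76374077, minus strand: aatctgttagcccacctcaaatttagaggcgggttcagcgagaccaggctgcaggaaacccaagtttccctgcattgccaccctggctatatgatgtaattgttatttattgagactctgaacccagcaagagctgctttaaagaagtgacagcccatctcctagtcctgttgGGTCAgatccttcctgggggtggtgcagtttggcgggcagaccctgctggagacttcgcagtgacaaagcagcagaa
Nrip1, inner start, chr16:76373050-76373299, minus strand: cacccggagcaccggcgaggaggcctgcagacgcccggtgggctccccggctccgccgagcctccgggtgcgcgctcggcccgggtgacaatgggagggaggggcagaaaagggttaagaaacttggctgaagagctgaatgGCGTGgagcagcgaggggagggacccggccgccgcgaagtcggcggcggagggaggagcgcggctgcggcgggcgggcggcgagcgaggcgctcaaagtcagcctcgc

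The full element was in 0 of the 35 windows, and it was in 0.0639% of all 32851 promoter windows of that length. With an element this rare, 0 of 35 says little about these genes. The half-site was in 18 of the 35 windows, against 35.2% of all windows, and the xenobiotic core in 15 of the 35, against 28.2%. The 18 windows came from 14 of the 22 genes, for which no share over all genes was computed. Genes with several starts, such as Sgk1, Rara and Tfrc, gave several windows, and some of these overlap, so the windows are not independent. Ctsd held 3 half-sites, starting 241, 94 and 69 bases before the start, and 1 xenobiotic core. Tiparp held 1 xenobiotic core and 0 half-sites, Nrip1 1 half-site at its first start and 1 xenobiotic core at the inner one, and Igfbp5 neither. A match describes letters in this window and not a binding site, and elements outside it were not searched.

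The trefoil factors, small secreted proteins that protect mucous surfaces, differed from one another. Tff1, the pS2 protein that is a classical Esr1 target in breast cancer cells, was steady at 9.12, 9.08 and 9.18 in BPA arrays, against 9.22, 9.24 and 9.004 in controls, a difference of -0.03 ± 0.12 (SE). Tff2, the spasmolytic polypeptide of stomach and pancreas, varied widely within both groups, with 11.30, 9.24 and 8.56 in BPA arrays against 9.86, 10.32 and 7.97 in controls. Its difference was 0.32 ± 0.83 (SE), with an interval of -1.64 to 2.28. It turned to -0.48 without BPA replicate 1 and to -0.39 without control replicate 3. The 6 arrays had the same order for Tff2 as for the mean of the 9 measured acinar cell markers, which was 0.72, 0.08 and -0.40 in BPA arrays against 0.28, 0.59 and -1.28 in controls, centred on the 6 arrays. Of the 9 acinar markers 8 were above background, and their mean differed between groups by 0.27 (exact permutation p = 0.8, two-sided). That difference was -0.02 without BPA replicate 1 and -0.30 without control replicate 3. The 4 measured duct markers averaged 7.32 to 7.67 in BPA arrays and 7.48 to 7.52 in controls. In bulk RNA of this kind, fewer cells of a type and less RNA per cell cannot be told apart, and the part of exocrine tissue in the Tff2 values was not tested.

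Tff3, the trefoil factor of intestinal goblet cells, read 6.49, 6.06 and 6.66 in BPA arrays, against 6.09, 6.20 and 10.35 in controls. Its difference of -1.14 ± 1.07 (SE) rests on control replicate 3, which was 3.69 above every other array; without that array it was 0.26, and without BPA replicate 1 it was -1.19. The same array was highest in genes of the intestinal lining, named here after their values were seen. The intestinal fatty acid binding protein gene Fabp2 read 4.30 to 4.63 in BPA arrays, against 4.49, 4.25 and 10.62 in controls. Intestinal alkaline phosphatase (Alpi) read 5.75 to 5.95 in BPA arrays, against 9.42 in control replicate 3 and 5.95 in control replicate 1, and the goblet cell mucin gene Muc2 5.69 to 6.04, against 5.79, 5.86 and 8.41. Control replicate 3 was more than 2 above every other array in 26 probe sets, BPA replicate 1 in 21, and the other 4 arrays in 0 to 2. In the 5 arrays other than control replicate 3, Tff3 was below background. The part of intestinal RNA in the Tff3 value was not tested.

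Igf1, insulin-like growth factor 1, a growth factor that oestrogen induces in uterus, was highest in BPA replicate 1 on all 4 of its probe sets. The brightest read 9.15, 8.12 and 8.23 in BPA arrays, against 8.14, 8.32 and 7.78 in controls, and differed by 0.42 ± 0.29 (SE); without BPA replicate 1 the difference was 0.10, and without control replicate 3 it was 0.27. The next 2 differed by 0.60 ± 0.32 and 0.56 ± 0.41, the second of them below background, and the dimmest by -0.11 ± 0.23. Without BPA replicate 1 these 3 differed by 0.26, 0.09 and -0.29, and without control replicate 3 by 0.38, 0.41 and -0.33. BPA replicate 1 was also the highest array for 6 of the 8 immune markers, though not for C1qb and Cd74, for 5 of the 7 stellate cell and fibroblast markers and for 9 of 9 acinar markers. The stellate and fibroblast mean, centred on the 6 arrays, was 0.47, 0.08 and -0.18 in BPA arrays, against 0.16, 0.15 and -0.68 in controls (exact permutation p = 0.7, two-sided), and 7 of its 7 genes were above background. Of the immune markers, Lyz2 read 10.77, 8.65 and 9.22 in BPA arrays, against 8.79, 8.44 and 8.08 in controls. The myeloid genes Cd14 and S100a8 were named because they stood out in BPA replicate 1: Cd14 read 11.19, 8.40 and 8.79 in BPA arrays, against 8.69, 8.73 and 8.21 in controls, and S100a8 read 8.94, 5.24 and 5.27, against 5.23, 5.61 and 4.81. The part of myeloid cells, of stellate cells and fibroblasts and of acinar cells in the Igf1 values was not tested.

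**Figure D4:**
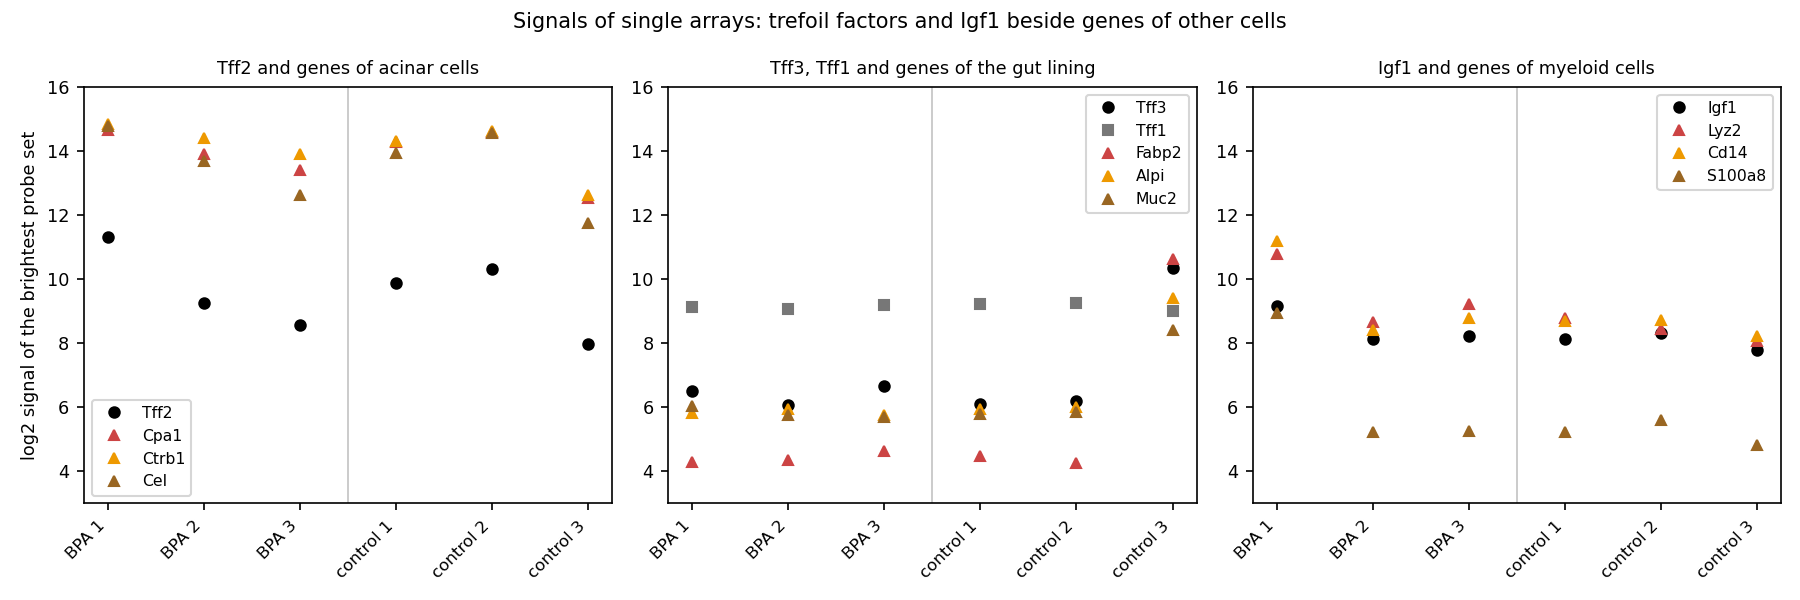
Log2 signal of the brightest probe set per array (y axis), with the BPA arrays left of the grey line and the control arrays right of it, for Tff2 with 3 acinar genes, for Tff3 and Tff1 with 3 genes of the gut lining, and for Igf1 with 3 myeloid genes. Tff3 reaches 10.35 in control replicate 3 alone, together with Fabp2, and Igf1 is highest in BPA replicate 1.

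Among transcription and cell cycle genes, Ccnd1 and Myc were above background. Ccnd1, which encodes cyclin D1, an oestrogen target that drives entry into the cell cycle, had 3 bright probe sets that disagreed in sign. The brightest, 1448698_at, differed by -0.05 ± 0.10 (SE), 1417420_at by 0.27 ± 0.15 and 1417419_at by -0.25 ± 0.17, all with overlapping groups. On 1417420_at the BPA arrays lay between 10.37 and 10.48 and the controls between 9.91 and 10.40. Myc, an early oestrogen target in breast cells, read 7.14, 6.99 and 6.93 in BPA arrays, against 7.01, 7.04 and 6.99 in controls, close to background, and differed by 0.01 ± 0.11. Of the dim genes, the 4 probe sets of Greb1 differed by -0.05 to 0.22 and the 3 of Pgr by -0.04 to 0.14. Gata3 differed by 0.00 ± 0.09, Rara by 0.10 ± 0.11 and the 2 probe sets of Mybl1 by 0.25 ± 0.15 and 0.15 ± 0.08. The dimmer one of Mybl1 did not overlap, with 3.33, 3.54 and 3.32 in BPA arrays against 3.30, 3.21 and 3.22 in controls. Values this dim depend on how the probes were summarised, and no difference is read from them.

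Of 16 genes with several probe sets, 8 had differences of both signs, 6 were higher and 2 lower after BPA on all of them. The 2 were Tiparp and Siah2.

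The genes around the receptor were read from 6 lists of the oestrogen pathway, each gene by its brightest probe set. Of 70 listed genes 62 were measured and 50 were above background; 35 were higher and 27 lower after BPA, and 0 passed the test in either direction (background 0% for each). At an unadjusted p under 0.05 there were 4 of the 62 (5.87% of all probe sets), and 10 did not overlap (11.5% of all). Of the 6 receptors, Gper1, Esrra and Esrrg had a mean above background on the brightest probe set. For Gper1 this was 1447583_x_at, with a mean of 7.04 and 5 arrays above the level. Gper1's other probe set, 1428250_at, had a mean of 5.25 and 0 arrays above it. The brightest Esr1 probe set read 6.31, 6.17 and 6.13 in BPA arrays, against 5.70, 6.03 and 5.93 in controls, and differed by 0.31 ± 0.12 (SE, adjusted p = 0.837) at a level below background; its other 2 differed by -0.06 and 0.08. Esr2 read 4.92 to 5.20 after BPA and 4.77 to 5.10 in controls. Esrra, an orphan receptor that controls mitochondrial genes, differed by 0.16 ± 0.15.

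Of the 15 measured receptor coregulators all were above background, 8 were higher and 7 lower, with a median of 0.03. The smallest p belonged to the RNA helicase genes Ddx17 (12.90, 12.95 and 13.19 in BPA arrays, against 13.33, 13.24 and 13.28 in controls, adjusted p = 0.837) and Ddx5 (-0.25 ± 0.12). Of the 9 pioneer and partner factors, 6 were above background and the median was -0.02, and Sp1, through which oestrogen receptors act at GC-rich promoters, had the smallest p. It read 10.73, 10.98 and 11.03 after BPA, against 11.28, 11.25 and 11.10 in controls, and differed by -0.30 ± 0.12 (SE, adjusted p = 0.837). The pioneer factor gene Foxa1, on which Esr1 binding depends in breast cells, was below background, and it differed by 0.28 ± 0.12. All 10 measured genes of membrane-initiated signalling were above background, with a median of 0.03, led by Akt1 (0.24 ± 0.12) and Gnas (-0.16 ± 0.08).

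Of the 8 measured genes of oestrogen synthesis and inactivation 4 were above background and the median was 0.02. They include 2 targets of the aryl hydrocarbon receptor, which Tiparp represses. On its brightest probe set Cyp1b1 read 8.52, 6.93 and 7.41 in BPA arrays, against 6.66, 7.02 and 6.92 in controls, again highest in BPA replicate 1. It differed by 0.75 ± 0.38 with overlap, or by 0.30 without that array. Its other probe sets, 1432081_at and 1416613_at, were below background and differed by -0.05 ± 0.11 and 0.29 ± 0.23 with overlapping groups. Cyp1a1 was below background, at 4.70 to 4.83 after BPA and 4.32 to 4.76 in controls. Of the 14 further oestrogen-responsive genes that were measured 9 were higher and 5 lower, with a median of 0.07. Ramp3, a receptor activity-modifying protein, read 9.25, 9.28 and 9.45 in BPA arrays, against 8.87, 8.80 and 9.23 in controls, without overlap and by 0.36 ± 0.15 (SE, adjusted p = 0.843). Krt18, a keratin of simple epithelia, differed by 0.24 ± 0.12.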

How the data were processed

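The 6 arrays (3 per group) were grouped by title. The deposited table holds log2 values, judging by their range. Per the submitters' processing notes MAS5 was among the tools; neither its version nor its role is given. How the authors summarised and scaled the probes is not settled, and the spread of dim probe sets depends on it. Values were used unchanged. Genes came from the platform annotation: of 45037 probe sets other than the 64 array controls, 34945 had 1 gene, 932 several and 9160 none, and 0 named a member among several.

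The comparison used limma (version 3.58.1, R 4.3.3; two-sided moderated test from lmFit and eBayes, variance trend fitted) over all 45037 probe sets, with Benjamini-Hochberg adjustment over the same and a threshold of 0.05; the labels state no test. Each array was also set against the level of sensory receptor probe sets. Marker lists were compared by exact permutation. The fit was also run on simulated data with independent normal noise of each probe set's own spread. Such data lack the single arrays that stood apart and any deviations shared by same-numbered arrays, and no result here rests on them. The 30 genes, the lists and the tests were chosen with earlier results of these data known. All 30 genes are named, with each array's value where the groups did not overlap or the unadjusted p was under 0.05; per pathway list the 2 genes with the smallest p are named. Promoter sequences are RefSeq's. Alternatives were other scalings, filters, variance models, a replicate block and arrays left out.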

Additional observations from a re-analysis of the deposited data

How the results depend on the processing

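The count of probe sets past an adjusted p under 0.05 was 0 in the whole table and 0 among the 58 in each of the 16 alternative fits. At an unadjusted p under 0.05, the table's count of 2643 became 1458 with the filter at the median, 789 with the filter at the 75th percentile (fewer probe sets tested), 4892 with the replicate block and 4916 without both replicate 3 arrays; without each array in turn it ran from 1787 to 5132, the highest without BPA replicate 3. The count of 5 of 58 became 9 with the replicate block, which changed no call, and 4 to 8 without each array in turn, the highest without control replicate 3; the causes were not tested. Of the 58 probe sets 36 kept their sign in every alternative they entered and 22 did not, none of them past the threshold. The 11 probe sets without overlap all kept their sign. Where groups do not overlap, leaving out arrays cannot change the sign, and filters, variance models and the replicate block leave the difference as it is. Among the alternatives only the scalings could have changed it. Of 870 values 6 moved by more than the spread within groups. The count of 21 genes above background ran from 15 to 21. Whether the replicate numbers pair the samples is not known. Deviations of same-numbered BPA and control arrays from their group means correlated at 0.397, 0.0664 and 0.642 for replicates 1, 2 and 3. Those of differently numbered arrays correlated at -0.562 to 0.365. Because the deviations within each group sum to 0, the 2 kinds of correlation are not independent of each other. A shared origin of same-numbered samples was not tested. The median difference between BPA and control over all probe sets was 0.018 in the main fit and 0.019 with quantile normalization. It was 0.040 with each array centred on its median and -0.0072 with cyclic loess.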

Other observations

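Some probe sets of the receptor's coregulators differed more than the brightest one of the same gene; they were named after their values were seen. Crebbp, the acetyltransferase CBP that nuclear receptors recruit, read 9.92, 10.13 and 10.25 in BPA arrays, against 10.91, 10.62 and 10.89 in controls on probe set 1436983_at and differed by -0.71 ± 0.14 (SE, limma, adjusted p = 0.808). Its brightest probe set leaned the other way, by 0.11 ± 0.10. The remaining ones, 1434633_at and the dim 1459804_at, differed by -0.10 and -0.20 with overlapping groups. Nsd1, a histone methyltransferase that binds nuclear receptors, read 6.89, 6.98 and 7.15 after BPA, against 7.62, 7.47 and 8.01 in controls on 1440972_at, while its brightest probe set differed by 0.05 ± 0.11. The remaining Nsd1 probe sets, 1456916_at and 1420881_at, were below background and differed by -0.51 and -0.06 with overlapping groups. For Ddx5, 5 of 6 probe sets were lower after BPA, by -0.40 to -0.14, and the other differed by 0.14. None of these passed the test.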
